A study of Drosophila melanogaster
Drosophila virilis with 26 samples.

Results

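The D. virilis genes described here are those that carry the name of a D. melanogaster gene. A member is a D. virilis row of the full-depth count table whose name is not GJ and a number and is also the name of a D. melanogaster row. The rule found 220 members among 14331 D. virilis genes and 28133 genes in all. Of the 272 D. virilis genes with such a name, 52 had no namesake in the table. The rule uses names and no measured value, but it was set with earlier results of these data known.

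The libraries were made to learn whether RNA-seq protocols for small samples report transcript amounts in proportion. RNA from pooled whole embryos of both species, 0 to 4 h old, was mixed so that D. virilis made up 0, 5, 10 or 20% of the total RNA, and 1 library was made for each protocol and mixture. The low-volume protocols, from 1 ng of RNA, were Clontech, TotalScript, SMART-seq2 and SMART-seq2 with the tagmentation volume lowered 2.5-fold or 5-fold, and the last 2 also had a 1% mixture. TruSeq, from 100 ng, was the high-input protocol. No strain, genotype or treatment was labelled, all the embryos were kept under standard conditions, and no label names replicate collections of embryos. The Clontech libraries used cDNA made with TruSeq reagents, and the 2 dilutions were tagmented from 1 separate set of amplified cDNA.

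The 2 species are distant relatives within the genus, and the fly embryo begins its development on RNA that the mother loads into the egg. In D. melanogaster, bicoid and nanos RNA mark the ends of the egg, oskar assembles the germ plasm, and gap, pair-rule and Hox genes are then transcribed by the embryo itself as the maternal products are cleared. The shared names are taken as the files give them, and whether each pair is a pair of orthologs was not checked. FlyBase had given such names to few D. virilis genes.

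Over the 26 libraries, 1605398 to 55068293 reads were counted on genes (median 12354345.5), and 39859 to 3130894 of these were D. virilis reads in the 18 libraries with 5, 10 or 20% D. virilis RNA. The level of a gene is given as CPM, its count scaled to 1000000 reads on genes of its own species, so that the mixture drops out of the ratio of D. virilis over D. melanogaster. The ratio is not corrected for length, since the gene models of the species may differ in length and completeness and no D. virilis lengths were used here. Each ratio comes from 1 library and carries an exact (Clopper-Pearson) 95% interval that covers counting error only. There is no test between the species. Where 1 species had 0 reads, the ratio is a bound computed against 3 reads in that library.

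In the 20% TruSeq library, with 2763364 D. virilis and 26639188 D. melanogaster reads, the members took 2.91% of the D. virilis reads and their namesakes 2.69% of the D. melanogaster reads. A pair counted as measured where the mean of its 2 levels was at least 10 CPM, and 90 of the 220 pairs were. Among the 130 other pairs, 46 had no read in either species, 61 had only D. melanogaster reads, 7 only D. virilis reads and 16 had reads in both. The pair nearest below the minimum was Sry-alpha, which serves cellularization, with 0 D. virilis and 504 D. melanogaster reads and a mean level of 9.46 CPM. The pair nearest above it was sev, with a mean of 10.31 CPM. Over all 26 libraries 87 members had no read at all, or 39.5%, and the share among the D. virilis genes named GJ and a number was also 39.5%. Of the namesakes, 33 (15%) had none.

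Most measured pairs stood within 2-fold of each other in the 2 species. In RNA from pooled whole embryos, fewer cells that express a gene and less RNA per cell cannot be told apart. Over the 87 pairs with reads in both, the median log2 ratio of D. virilis over D. melanogaster was -0.08 and the middle 50% of pairs lay between -0.71 and 0.44. Past 2-fold, 11 D. virilis genes were higher than their namesakes and 17 were lower, together 31.1% of the 90, while 62 stayed within 2-fold. The minimum was on the mean of both levels, so a pair very low in 1 species was measured only through a high level in the other. Such pairs were past 2-fold by that rule, among them SuUR, sev, mei-218, msl-2, Mt2, rst, kirre and tra. The counts past 2-fold and the most extreme ratios follow in part from the minimum. The levels ran from 0.362 to 8168 CPM in D. virilis and from 0.188 to 3637 CPM in D. melanogaster. Across these 87 pairs the log2 levels of the species had a Pearson correlation of 0.65 and a Spearman correlation of 0.77, a description over genes that share 1 library and its depth.

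**Figure D1:**
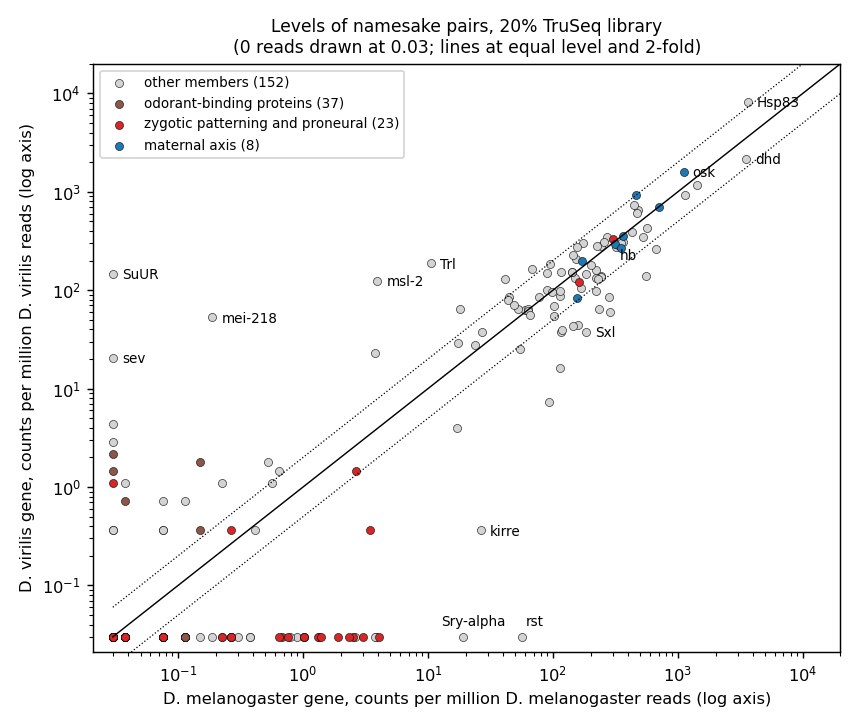
Level of each of the 220 members (vertical, CPM of the D. virilis total) against its namesake (horizontal, CPM of the D. melanogaster total) in the 20% TruSeq library, both axes on a log scale, with 0 reads drawn at 0.03. Maternal axis genes (blue) lie near the line of equal level, while most zygotic patterning and proneural genes (red) lie on the bottom edge with 0 D. virilis reads.

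The most abundant pairs were maternal and housekeeping genes. Hsp83, the fly Hsp90 chaperone, had 22572 D. virilis and 96895 D. melanogaster reads, or 8168 CPM in D. virilis and 3637 CPM in D. melanogaster, which made it the highest member in both species. Its log2 ratio was 1.06 at 5%, 1.14 at 10% and 1.17 (1.15 to 1.19) at 20%, so that it lay above 2-fold in each. Next came deadhead (dhd), a thioredoxin of the female germ line, with 5998 D. virilis and 93476 D. melanogaster reads and a log2 ratio of -0.69 (-0.73 to -0.66). The others of the 6 highest, which include osk, were within 1.5-fold of parity. ATPsyn-beta, a subunit of the mitochondrial ATP synthase, stood at 1171 CPM in D. virilis and 1419 CPM in D. melanogaster. mod(mdg4), which encodes chromatin and insulator proteins, stood at 936.9 CPM in D. virilis and 1146 CPM in D. melanogaster. Toll (Tl), the receptor of the dorsoventral system, had 703.1 CPM in D. virilis and 702.2 CPM in D. melanogaster.

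The maternal axis list held 8 members, all were measured, and none was lower in D. virilis past 2-fold. oskar (osk) had 4391 D. virilis and 29627 D. melanogaster reads, a log2 ratio of 0.51 (0.47 to 0.56). bicoid (bcd), the anterior determinant, had 548 D. virilis and 4518 D. melanogaster reads (0.23, 0.09 to 0.35). nanos (nos), the posterior translational repressor, had 820 D. virilis and 8357 D. melanogaster reads (-0.08, -0.18 to 0.02). These 3 genes were within 1.5-fold of their namesakes in TruSeq. staufen (stau), which carries bcd and osk RNA, had a log2 ratio of -0.04, vasa (vas), a germ plasm helicase, one of -0.40 and tube (tub), an adaptor below Toll, one of -0.90. Only exuperantia (exu), needed to place bcd RNA at the anterior, passed 2-fold, at 937.6 CPM in D. virilis and 458.3 CPM in D. melanogaster, and its log2 ratio of 1.03 (0.97 to 1.09) was 0.97 in the 10% library. Over the 8 members together the D. virilis level was 4428 and the D. melanogaster level 3625 CPM.

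Early zygotic genes were mostly below the minimum. The gap, pair-rule, segment polarity, Hox, dorsoventral and proneural lists held 23 members, and only the gap gene hunchback (hb), which the mother also supplies, and the Wnt receptor frizzled (fz) were measured. hb had 924 D. virilis and 8013 D. melanogaster reads (log2 ratio 0.15, 0.05 to 0.25), and fz had 332 D. virilis and 4344 D. melanogaster reads (-0.44, -0.61 to -0.28). Of the other 21, 16 had only D. melanogaster reads, 1 only D. virilis reads, 3 had reads in both and 1 had none. Kr, kni and tll among the gap genes, eve, h and run among the pair-rule genes, zen and sog had 0 D. virilis reads against 80, 37, 62, 35, 27, 67, 107 and 51 D. melanogaster reads. The mesoderm gene twi had 4 D. virilis and 71 D. melanogaster reads, and the proneural gene sc had 1 D. virilis and 92 D. melanogaster reads. The Hox genes lab, with 3 D. virilis and 0 D. melanogaster reads, and abd-A, with 1 D. virilis and 7 D. melanogaster reads, had the higher CPM in D. virilis, on very few reads.

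These 21 genes were also summed. The set leaves out hb and fz because of their levels in the 20% TruSeq library, so the sums are a description of genes chosen in part by their counts. The TruSeq library without D. virilis RNA, the deepest with 55068293 reads on genes, held 11 reads on these D. virilis genes. The 5, 10 and 20% TruSeq libraries had 19439195, 32879578 and 29402552 reads on genes. Their few D. virilis reads on these genes, given next, are thus not set apart from the background of species assignment. The 5% library held 3 D. virilis and 540 D. melanogaster reads, and at the level of the namesakes 13.3 D. virilis reads would have been counted. The 10% library held 3 D. virilis and 780 D. melanogaster reads, where 37.4 D. virilis reads would have been counted, and the 20% library held 9 D. virilis and 743 D. melanogaster reads, where 77.1 would have been. In the 20% libraries of the 2.5x and 5x dilutions there were 0 and 4 D. virilis reads against 519 and 596 D. melanogaster reads, where 111 and 128 would have been counted. The collections of the 2 species were labelled with 1 range of ages only, and neither the stages of the embryos nor the completeness of the D. virilis models was tested as a part of this difference.

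Genes of sex determination and dosage compensation lay on both sides of parity. Of 9 members 6 were measured, 1 higher and 2 lower past 2-fold. msl-2, the limiting subunit of the male dosage compensation complex in D. melanogaster, had 345 D. virilis and 105 D. melanogaster reads, or 124.8 CPM in D. virilis and 3.942 CPM in D. melanogaster, a log2 ratio of 4.98 (4.67 to 5.32). Its partners in that complex were near parity, with msl-1 at 391.2 CPM in D. virilis and 428.4 CPM in D. melanogaster, and msl-3 at 151.6 CPM in D. virilis and 141.3 CPM in D. melanogaster. Sex-lethal (Sxl), the switch gene of sex determination in D. melanogaster, had 104 D. virilis and 4917 D. melanogaster reads (log2 ratio -2.29, -2.59 to -2.01). Its splicing target transformer (tra) had 11 D. virilis and 456 D. melanogaster reads (-2.10, -3.12 to -1.25). In the 5% library tra had 0 D. virilis and 236 D. melanogaster reads, a bound of -0.95 that did not pass 2-fold, and with sampled counts the bound was -0.20. tra2, which acts with tra, had a log2 ratio of 0.13. The X-linked signal gene sisA had 0 D. virilis and 70 D. melanogaster reads, below the minimum.

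The 3 highest ratios belonged to genes whose namesakes had 0, 0 and 5 reads. SuUR, which holds back replication of heterochromatin in polytene chromosomes, had 403 D. virilis and 0 D. melanogaster reads, at least 1295-fold higher in D. virilis. The receptor tyrosine kinase gene sevenless (sev) had 57 D. virilis and 0 D. melanogaster reads, at least 183.2-fold higher in D. virilis. Both had D. virilis reads and at most 1 D. melanogaster read in each of the 3 TruSeq mixtures. mei-218, needed for meiotic crossing over, had 146 D. virilis and 5 D. melanogaster reads (log2 ratio 8.14, 6.88 to 9.78). Below msl-2 followed Trl, which encodes GAGA factor, at 188.5 CPM in D. virilis and 10.51 CPM in D. melanogaster (4.17, 3.95 to 4.38), and the methyltransferase gene Mt2 with 64 D. virilis and 100 D. melanogaster reads (2.62, 2.15 to 3.09). Lhr, a heterochromatin protein gene known from hybrid lethality, Met, a juvenile hormone receptor, and the RNA helicase Ddx1 had log2 ratios of 1.85, 1.67 and 1.28. That of Ddx1 did not pass 2-fold in the 5% library (0.90) or with sampled counts (0.81).

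The lowest ratios were those of roughest (rst) and kirre, a pair of neighbouring cell adhesion genes. rst had 0 D. virilis and 1518 D. melanogaster reads, at least 52.49-fold lower in D. virilis, and kirre had 1 D. virilis and 702 D. melanogaster reads (log2 ratio -6.19, -11.49 to -3.70). In the 10% library rst had 2 D. virilis reads and kirre 0. With sampled counts the ratio of kirre was a bound of -0.80, short of 2-fold. Pcd, an enzyme of pterin metabolism, had 20 D. virilis and 2474 D. melanogaster reads (-3.68, -4.39 to -3.05). Tbp, the TATA-binding protein, stood at 16.28 CPM in D. virilis and 113.9 CPM in D. melanogaster (-2.81). Gpdh, glycerol-3-phosphate dehydrogenase, stood at 60.07 CPM in D. virilis and 283.9 CPM in D. melanogaster (-2.24), and Oda, the antizyme of ornithine decarboxylase, at 140.8 CPM in D. virilis and 555.5 CPM in D. melanogaster (-1.98). The other 9 lower pairs, lama, oaf, z, sina, Su(fu), glob1, ovo, e(r) and Atg5, had log2 ratios from -1.86 to -1.13. The superoxide dismutase gene Sod, the other measured member of the metabolic list, stood at 275.4 CPM in D. virilis and 318.6 CPM in D. melanogaster.

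Overlap between gene models was looked up for the namesakes. In the RefSeq annotation of D. melanogaster (Release 6), which was matched by name for 87 of the 90 pairs, the span of the namesake overlapped another gene for 9 of 11 pairs higher in D. virilis, 13 of 17 lower ones and 35 of 59 matched pairs within 2-fold. More than 50% of the span was overlapped for 3 of the higher, 6 of the lower and 9 of the other pairs. The whole spans of SuUR and rst were overlapped, mainly by CG45101 and by kirre, as was 91.6% of the span of mei-218, mainly by mei-217, and 80.5% of that of Trl, mainly by CG42507. Reads were counted without strand, so strand could not assign a read that lay on 2 overlapping genes. Reads that htseq-count set aside as ambiguous count for neither gene, and they are among the categories left out here. Over the 30 pairs with no overlap at all, 2 were higher and 4 lower past 2-fold. The part of overlap in the ratios was not tested.

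**Figure D2:**
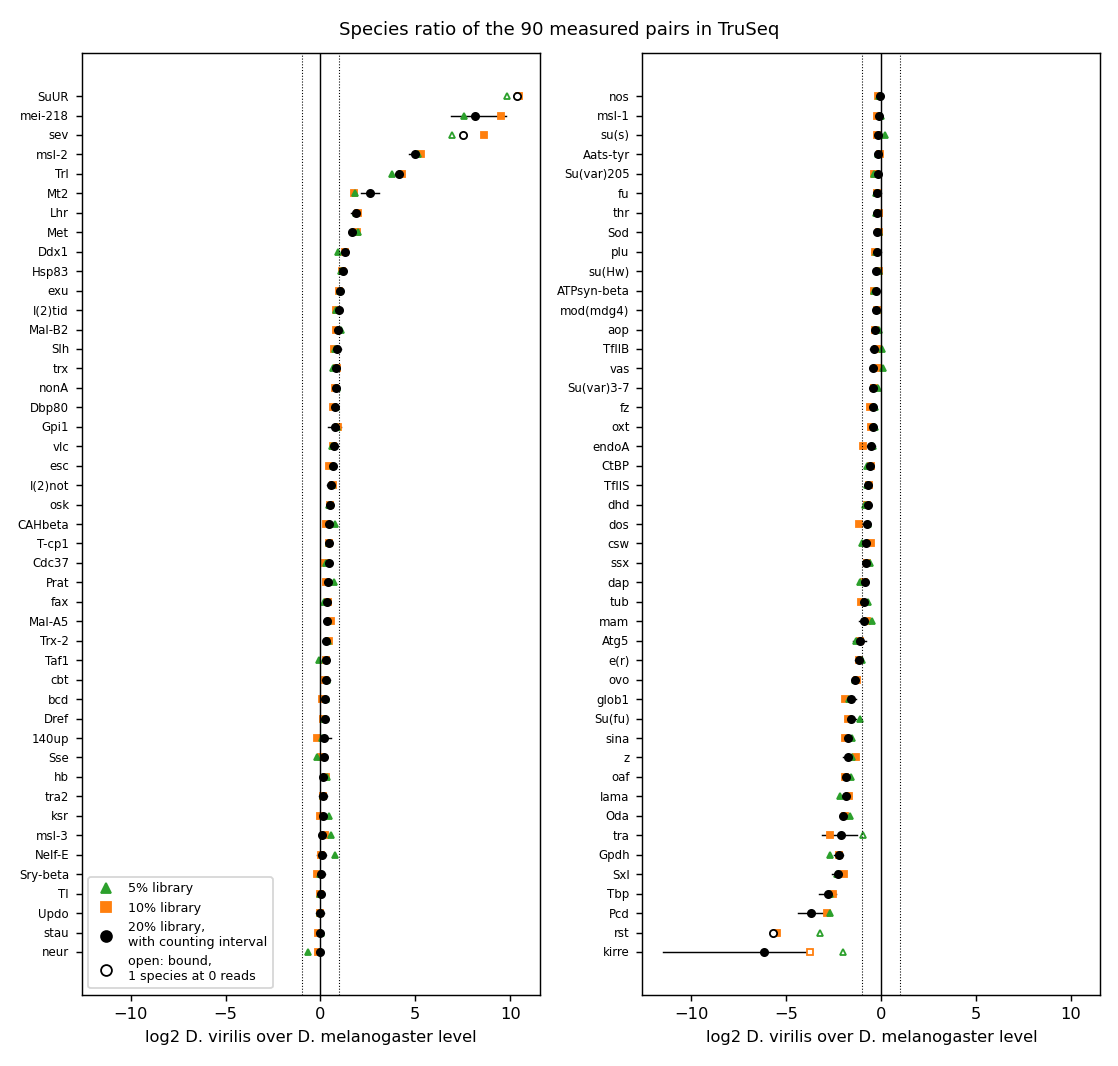
log2 ratio of the D. virilis over the D. melanogaster level (horizontal) for the 90 measured pairs, ordered by the 20% TruSeq library (black, with 95% counting intervals), beside the 5% (green) and 10% (orange) libraries; dotted lines mark 2-fold. The points of the 3 libraries nearly coincide for most pairs, and the median SD over them was 0.115.

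The ratio was stable from one TruSeq library to the next. The median SD of the log2 ratio over the 5, 10 and 20% libraries was 0.115 for the 85 pairs with reads in both species in each. In all 3 libraries 9 pairs were higher past 2-fold, 16 were lower and 57 stayed within. The SD over 3 libraries was larger in the other protocols, with medians of 0.499 in Clontech, 0.55 in TotalScript, 0.481 in SMART-seq2, 0.432 at 2.5x and 0.425 at 5x, against the 0.115 of TruSeq. Depth differed between protocols too, since the D. virilis totals at 20% were 270796, 262264 and 160670 reads in the first 3 of these protocols, 2813129 and 3130894 reads in the dilutions and 2763364 reads in TruSeq, and its part in the SD was not tested.

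The ratio of many pairs differed between protocols, with 1 library each and no test. Among the 90 pairs, 11 were higher and 23 lower past 2-fold in the 20% Clontech library (37.8%). The numbers were 18 and 43 in TotalScript (67.8%), 19 and 27 in SMART-seq2 (51.1%), and, in the dilutions, 18 and 28 at 2.5x (51.1%) and 19 and 26 at 5x (50%). Relative to the 20% TruSeq library the ratio moved by more than 2-fold for 13 of 85 pairs in Clontech, 43 of 80 in TotalScript, 29 of 84 in SMART-seq2, and 36 of 86 and 30 of 86 in the 2.5x and 5x dilutions, each counted over pairs with reads in both species.

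Some pairs kept their side under every protocol. SuUR, mei-218 and msl-2 were higher past 2-fold in all 6 of the 20% libraries, and Gpdh, Oda, Sxl, Tbp, ovo, rst, sina and z were lower in all 6, with bounds standing in for SuUR and rst where 1 species had 0 reads. Some of these rest on few D. virilis reads. In TotalScript z had 1, Gpdh 2, mei-218 6 and msl-2 8. In SMART-seq2 ovo had 2, z 3, mei-218 4 and Tbp 5. The 2 dilutions also share 1 set of amplified cDNA. The ratio of Oda ranged from -2.66 in TotalScript to -1.78 in Clontech. Cdc37, CtBP, Nelf-E, mod(mdg4), msl-3 and vas stayed within 2-fold in all 6. Another 8 pairs, among them Su(fu), ksr, nonA and trx, were higher in at least 1 library and lower in at least 1 other.

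Maternal genes near parity in TruSeq were not so in every protocol. bcd had a log2 ratio of -3.78 in TotalScript (8 D. virilis and 1427 D. melanogaster reads), one of 0.50 in Clontech and one of 0.17 in SMART-seq2, against 0.23 in TruSeq. The ratio of hb was -2.28 in TotalScript, that of Tl -1.80 and that of osk -1.50, while nos kept -0.05 there. In SMART-seq2 the ratio of nos was 1.79 (165 D. virilis and 535 D. melanogaster reads), against -0.08 in TruSeq, and it stood at 2.33 and 2.30 in the 2.5x and 5x dilutions. The ratio of dhd was -4.02 in SMART-seq2, -4.16 at 2.5x and -4.07 at 5x, against -0.69 in TruSeq. That of exu was -0.10 in SMART-seq2, against 1.03 in TruSeq.

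Another 4 pairs, chosen after their values were seen, had ratios far from those of TruSeq. ksr, a scaffold of the Ras pathway, had a log2 ratio of 3.23, 5.31 and 4.91 in SMART-seq2, the 2.5x and the 5x dilution, against 0.12 in TruSeq. Its namesake had 30, 60 and 80 reads in those 3 libraries. fax, an axon gene, went the other way, with -2.70, -7.52 and -6.83 in those libraries against 0.37 in TruSeq, on 9, 7 and 11 D. virilis reads. aop, an ETS repressor, had -2.68, -9.14 and -5.61 against -0.33, on 6, 1 and 13 D. virilis reads. The ratio of the chaperonin subunit T-cp1 was 4.41 in TotalScript (144 D. virilis and 88 D. melanogaster reads), against 0.45 in TruSeq. The pairs were picked for their distance from TruSeq, and none of these moves was tested.

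**Figure D3:**
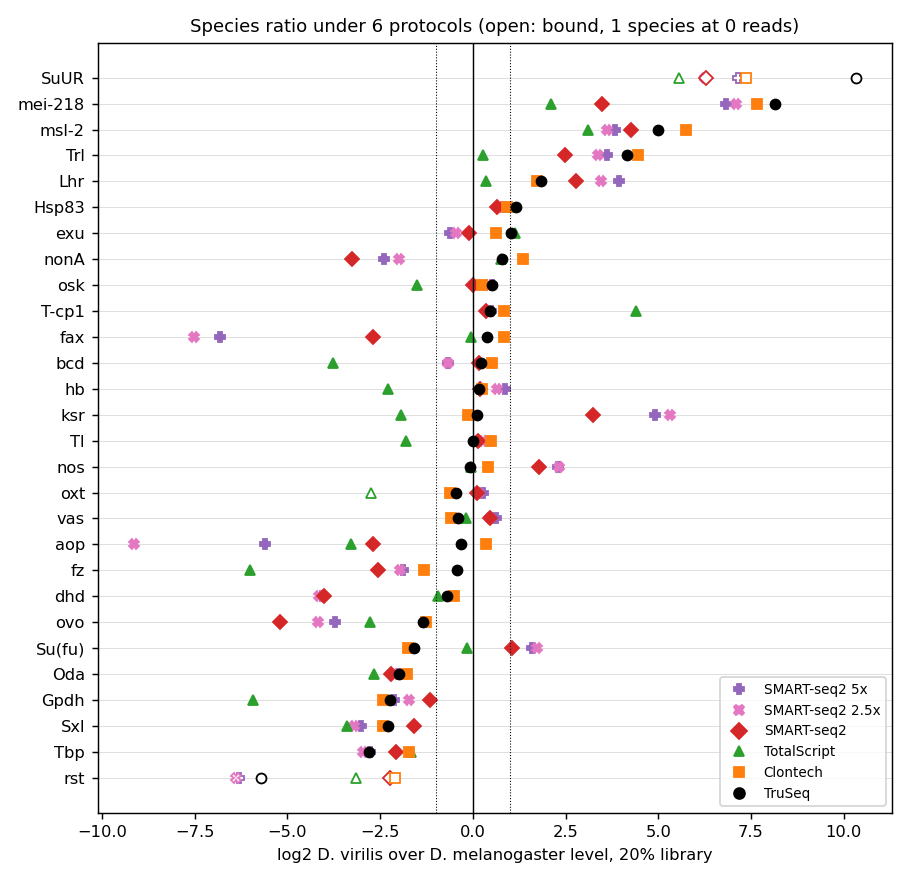
log2 ratio of the D. virilis over the D. melanogaster level (horizontal) of 28 pairs in the 20% libraries of 6 protocols, with dotted lines at 2-fold and open symbols for bounds where 1 species had 0 reads. Clontech (orange) and TruSeq (black) lie close together for most pairs, while dhd, fax, nonA and ksr part in the 3 SMART-seq2 libraries and bcd, fz and T-cp1 in TotalScript.

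To see which species had moved, the level of each gene was compared between each low-volume protocol and TruSeq within a species, with edgeR's quasi-likelihood test and Benjamini-Hochberg adjustment over all genes of the species that passed 50 CPM. The 5, 10 and 20% libraries stood as 3 repeat libraries a protocol. Since they draw on the same kind of RNA pool, the p-values measure only the spread between libraries. Of the members, 74 passed in D. virilis and 74 namesakes in D. melanogaster, and 64 pairs passed in both.

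Clontech called no member. None of the 74 D. virilis members passed an adjusted p of 0.05 by edgeR or by DESeq2 (1 at an unadjusted p under 0.05), beside 0% of all 4800 D. virilis genes tested. Of the namesakes none passed by edgeR (2 unadjusted) and 1 by DESeq2, beside 0.0224% of 4467 D. melanogaster genes by edgeR and 0.246% by DESeq2.

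TotalScript called most members in both species. In D. virilis 47 of 74 members passed, 19 higher and 28 lower than in TruSeq, beside 58.2% of all D. virilis genes. In D. melanogaster 57 of 74 namesakes passed, 29 higher and 28 lower, beside 70.9% of all. The members' shares were thus close to those of all genes. In SMART-seq2, 19 members passed in D. virilis, 9 higher and 10 lower, beside 18.2% of all, and 41 namesakes in D. melanogaster, 23 higher and 18 lower, beside 53.6% of all. DESeq2 gave 8 higher and 14 lower D. virilis members in SMART-seq2, beside 19% of all D. virilis genes, and 21 higher and 26 lower namesakes, beside 55.4% of all. The median log2 change of all D. virilis genes in SMART-seq2 was 0.19 in the edgeR fit and 0.01 with TMM factors. That of all D. melanogaster genes was 0.12 in the edgeR fit and 0.01 with TMM factors. Without the 20% TruSeq library, 9 D. virilis members passed in SMART-seq2, beside 9.03% of all. Without the 5% or the 10% TruSeq library 11 did, beside 9.74% and 9.13% of all.

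The D. virilis members with the largest losses in TotalScript were oxt, a xylosyltransferase, and thr, needed for chromosome separation. oxt had 0, 1 and 0 D. virilis reads in the 5, 10 and 20% TotalScript libraries, and 81, 226 and 447 in TruSeq (log2 change -5.89 ± 0.81, adjusted p = 9.28e-07), where its namesake changed by -1.47. thr had 3, 1 and 0 reads, against 132, 483 and 834 in TruSeq (-4.81 ± 0.67, adjusted p = 1.11e-06), and its namesake changed by -0.79. The largest gains in TotalScript were those of Gpi1, of glycolipid anchor synthesis, with 275, 108 and 225 CPM against 38.5, 35.2 and 29.3 in TruSeq (2.54 ± 0.50, adjusted p = 0.000105), and of plu, which restrains DNA replication in the early embryo, with 137, 225 and 252 CPM against 51.3, 53.2 and 55.7 (2.01 ± 0.41, adjusted p = 0.000132). The errors are standard errors of the fit, and fitted changes on so few reads depend on its prior count. The TotalScript and TruSeq libraries of these 4 genes did not overlap in D. virilis, which follows largely from picking the largest called changes.

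In SMART-seq2 the largest losses in D. virilis were those of nonA and fax. nonA, which encodes an RNA-binding protein, had 25.1, 12.5 and 12.4 CPM in D. virilis against 327, 285 and 301 in TruSeq (-4.38 ± 0.54, adjusted p = 5.68e-07), and its namesake changed by -0.84. fax had 50.2, 12.5 and 56 CPM against 558, 608 and 612 (-3.81 ± 0.40, adjusted p = 3.81e-08), with -0.44 in the namesake. In the 5, 10 and 20% SMART-seq2 libraries 3 D. virilis reads were 75.3, 37.4 and 18.7 CPM. nonA thus lay below 3 reads in each of them, and fax did at 5 and 10%. At 20% nonA had 2 D. virilis reads and fax had 9. Here too the fitted changes depend on the prior count. The gains were those of Gpi1 (2.08 ± 0.55, adjusted p = 0.00695) and of the Hedgehog pathway repressor Su(fu), at 100, 87.2 and 218 CPM against 53.5, 35.9 and 38 (1.84 ± 0.50, adjusted p = 0.00997). Su(fu) lost the call when any 1 of the 3 TruSeq libraries was left out, with the mixture as a block (adjusted p = 0.0637) and with sampled counts. Gpi1 lost it without the 20% TruSeq library and with sampled counts.

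The maternal genes differed in which species moved. In TotalScript bcd fell in D. virilis, at 68.6, 9.78 and 30.5 CPM against 216, 185 and 198 in TruSeq (-2.74 ± 0.50, adjusted p = 4.27e-05), and rose in D. melanogaster, at 301, 411 and 420 CPM against 177, 174 and 170 (1.13 ± 0.12, adjusted p = 1.23e-06). In those TotalScript libraries 3 D. virilis reads were 68.6, 29.3 and 11.4 CPM, so the D. virilis levels of bcd rested on few reads. For osk the D. virilis level changed by -0.08 (adjusted p = 0.76) and that of the namesake rose by 1.71 (adjusted p = 3.4e-09). nos rose by 1.73 in D. virilis (adjusted p = 3.67e-06) and by 1.84 in D. melanogaster (adjusted p = 9.02e-09). In SMART-seq2 nos rose by 1.76 in D. virilis (adjusted p = 1.53e-05), where its namesake changed by -0.08 (adjusted p = 0.558). exu rose in both, by 1.00 in D. virilis (adjusted p = 0.00128) and 2.02 in D. melanogaster (adjusted p = 3.17e-07).

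**Figure D4:**
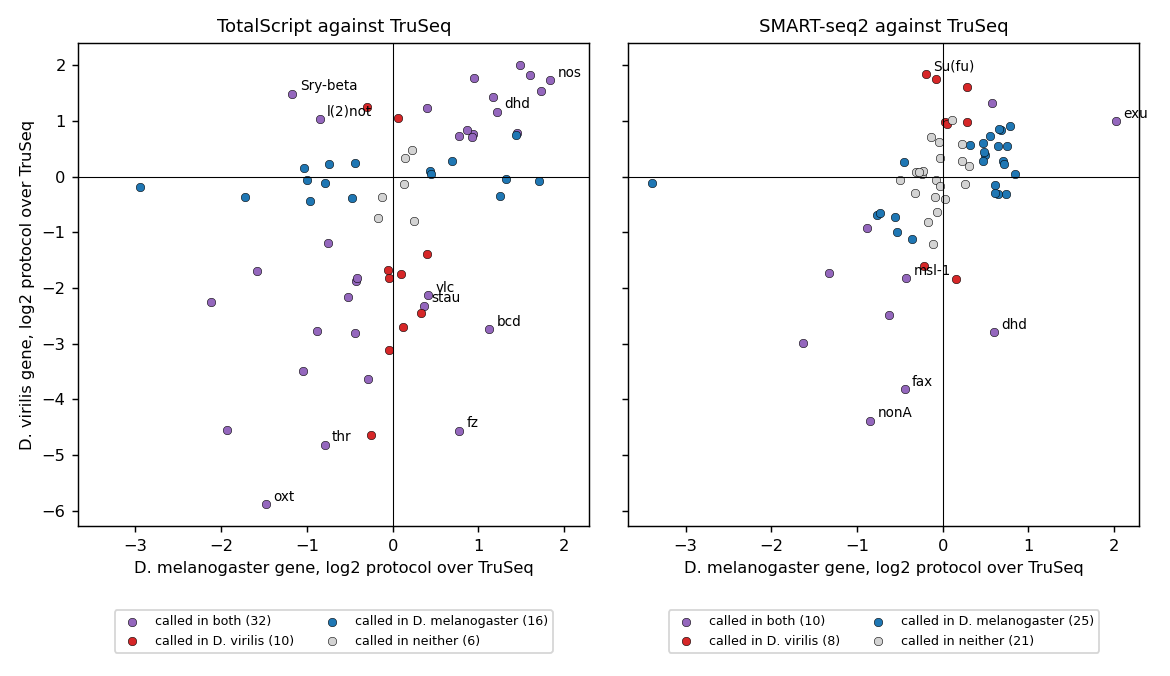
log2 change of each of the 64 pairs tested in both species, for the D. virilis gene (vertical) and its D. melanogaster namesake (horizontal), in TotalScript (left) and SMART-seq2 (right) against TruSeq, coloured by which species passed an adjusted p of 0.05. In TotalScript 32 pairs passed in both, 26 in the same direction and 6 in opposite ones, and in SMART-seq2 10 passed in both, 9 in the same direction and 1, dhd, in opposite ones.

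Within a protocol, members followed the mixture about as often as D. virilis genes did in general. By the measure of the study, the correlation of the sampled counts with the mixture over 0, 5, 10 and 20% for genes with at least 20 reads at 20%, 38 of 42 members reached 0.9 in Clontech, where 88.1% of all such D. virilis genes did. The counts were 17 of 24 in TotalScript (76.5% of all), 37 of 42 in SMART-seq2 (86.2%) and, in the dilutions, 55 of 63 at 2.5x (89.5%) and 60 of 63 at 5x (90.8%), against 55 of 56 in TruSeq (99%). The lowest member was Tl in Clontech (0.75), Hsp83 in TotalScript (0.67), Su(var)3-7 in SMART-seq2 (0.82), hb at 2.5x (0.76), endoA at 5x (0.79) and Met in TruSeq (0.88).

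Reads assigned to members in libraries without D. virilis RNA were few, with 1 exception among measured members with more than 3 such reads. In the TruSeq library at 0%, 64 members had 328 reads, which after scaling was 0.218% of their level in the 20% library, beside 0.243% for all D. virilis genes. The share of the members was 0.199% in Clontech, 0.663% in TotalScript, 0.248% in SMART-seq2, 0.398% at 2.5x and 0.336% at 5x. That of all D. virilis genes was 0.249%, 0.51%, 0.149%, 0.365% and 0.348% in the same order. In TruSeq, Oda had 76 of these reads, or 10.4% of its level at 20%, followed by mam, a Notch coactivator, with 12 reads (4.24%), Pcd with 1 (2.67%) and z with 5 (2.23%). Oda's share was 17.5% at 2.5x and 14.6% at 5x, and ranged from 2.27% in Clontech (1 read at 0%) to 35.6% in SMART-seq2 (9 reads at 0% and 27 at 20%). Other high shares rested on few reads at 0%. Among them were endoA at 15.1% in TotalScript (1 read), Sxl at 7.12% in SMART-seq2 (1 read) and ovo at 6.3% at 2.5x (3 reads). In the 1% libraries, 77 of the 90 measured members had a D. virilis read at 2.5x and 75 at 5x, against 43 and 44 in their 0% libraries.

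Members of adult tissues were barely counted in either species, and their reads are set beside CPM here because the library holds fewer D. virilis reads. The 37 odorant-binding protein genes held no measured pair, with 18 D. virilis and 37 D. melanogaster reads in the 20% TruSeq library, and 25 had none in either. Their summed level was higher in D. virilis, at 6.51 CPM against 1.39 CPM in D. melanogaster (log2 ratio 2.23, 1.33 to 3.08). In the 20% libraries of the 2.5x and 5x dilutions it was 15.6 and 15 CPM in D. virilis, against 0.531 and 0.547 CPM in D. melanogaster. The 5 eggshell genes had 14 D. virilis reads (5.07 CPM), 12 of them on Cp15, and no D. melanogaster read. The 4 genes of the adult eye had 1 D. virilis and 6 D. melanogaster reads, and the yolk gene Yp1 had 1 D. virilis and 2 D. melanogaster reads. In the 20% libraries of the dilutions the eye genes had 0 D. virilis reads, against 21 and 31 D. melanogaster reads. Of the 4 embryo markers, bcd, nos and osk were measured in both species, and zen was not. No member bore the name of a microRNA, histone, ribosomal protein, actin, tubulin or male gland gene, or of a gene of the mitochondrial genome.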

How the data were processed

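Raw counts per gene were used. Reads of 50 bp from 1 end were aligned by the authors to the joined FlyBase genomes with STAR, then counted by gene name with htseq-count and without strand, and the deposited counts are whole numbers although the columns are labelled FPKM. Replicates were not pooled. The categories of htseq-count were left out. The full-depth table was used, and the authors' sampled table served for linearity and as an alternative. The members and lists were chosen with earlier results of these data known.

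Levels (CPM) were counts over the total of the species, scaled to 1000000. A pair was measured at a mean of 10 CPM or more in the 20% TruSeq library. Protocols were compared with edgeR 4.0.16 in 12 libraries, with protocol as the only term, the species total as library size and a minimum mean of 50 CPM. DESeq2 1.42.0 (R 4.3.3) was an alternative. Python 3.11.15, numpy 2.4.6, pandas 2.3.3 and scipy 1.17.1 did the rest, with the seed 869. On counts simulated for the 4718 D. virilis genes of Clontech against TruSeq, edgeR recovered 46.4% of 2-fold changes, and on 4717 genes 100% of 4-fold changes. The simulation gave every gene and protocol 1 fixed dispersion, which was not fitted to these data. Its recovery is thus not the power behind the absence of member calls in Clontech. Deviations of libraries of the same mixture from their protocol means correlated by -0.114 to 0.182 in D. virilis and -0.45 to 0.52 in D. melanogaster, so the mixture was not used to pair them.

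The genes named are the 6 highest pairs, the 8 highest and 8 lowest ratios with at least 100 reads, up to 3 of each list with the most reads, the 4 with the highest share at 0%, and the 2 D. virilis members called with the largest change each way in each protocol. Others were named after their values were seen. Alternatives were the sampled counts, the other mixtures, other minimums, totals or scaling, subtraction of the 0% reads, the mixture as a block, each library left out and, chosen after seeing the data, the pairs without overlap. The precision of a ratio is limited by the D. virilis total, where 3 reads were 1.09 CPM in the 20% TruSeq library and 18.7 CPM in that of SMART-seq2.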

Additional observations from a re-analysis of the deposited data

Results flagged for a closer look

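In 7 cases, the D. virilis gene and its namesake were called in opposite directions under the same protocol and all 3 libraries of each species moved to their own side of the TruSeq mean. The difference between the species was not tested. In TotalScript, the log2 change in D. virilis minus that in D. melanogaster was -5.34 for fz (-4.57 in D. virilis and 0.78 in D. melanogaster), -3.86 for bcd (-2.74 in D. virilis and 1.13 in D. melanogaster), -2.69 for stau (-2.32 in D. virilis and 0.37 in D. melanogaster), -2.54 for vlc (-2.13 in D. virilis and 0.41 in D. melanogaster), 2.65 for Sry-beta (1.49 in D. virilis and -1.17 in D. melanogaster) and 1.88 for l(2)not (1.03 in D. virilis and -0.85 in D. melanogaster). In SMART-seq2 it was -3.39 for dhd (-2.80 in D. virilis and 0.60 in D. melanogaster). Some of these values rest on very few D. virilis reads. fz had 22.9, 0 and 3.81 CPM in the 5, 10 and 20% TotalScript libraries, with 1 D. virilis read at 20%, and bcd had 8 reads there. Fitted changes on so few reads depend on the prior count of the fit. l(2)not passed narrowly in D. virilis (edgeR adjusted p = 0.0478). In each of the 3 low-volume protocols tested, 64 pairs were tested in both species. All 3 libraries of both species moved to opposite sides in 19 cases, of which these 7 were called in both. The 19 include cases in Clontech, where no pair was called, such as exu (-0.08 in D. virilis and 0.29 in D. melanogaster). The number of such cases that would arise without a change was not worked out.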

How the results depend on the processing

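Of the alternative values of the counts and summaries, 114 stayed near the reported ones and 17 moved. In the 20% TruSeq library, the median log2 ratio was -0.22 with sampled counts, 26 pairs were lower with a minimum of 1 CPM, 3 were higher and 8 lower with 100 CPM, 20 were higher with no minimum, and 2 were higher and 4 lower without overlap. With a minimum of 200 CPM, TotalScript called 23 D. virilis members and 31 namesakes, and SMART-seq2 12 and 22. Of all D. virilis genes at that minimum, TotalScript called 394 higher and 479 lower, and SMART-seq2 204 and 209. Of all D. melanogaster genes there, TotalScript called 456 higher and 553 lower, and SMART-seq2 372 and 427. SMART-seq2 called 11 D. virilis members with sampled counts. Of all D. virilis genes it then called 159 higher and 376 lower, against 375 and 497 in the main fit. Clontech called 1 namesake with DESeq2 and 1 with no minimum. Of all D. melanogaster genes it called 10 higher and 1 lower with DESeq2, and 28 and 1 with no minimum. The smaller tests of the higher minimums hold fewer genes, and the other causes were not tested. The numbers of genes tested at 200 CPM, with sampled counts and with no minimum are not given here. Those counts are therefore not read as a result about the members. Leaving out 1 library gave 37 to 48 D. virilis members for TotalScript, 9 to 20 for SMART-seq2 and 0 for Clontech, and 52 to 57, 34 to 36 and 0 namesakes. The share of all D. virilis genes called in SMART-seq2 also fell when a TruSeq library was left out, from 18.2% to between 9.03% and 9.74%. For the other runs with 1 library left out, the share of all genes is not given here. Their counts are not read as a result about the members either. With the mixture as a block, 41 and 14 of the 74 D. virilis members and 57 and 41 of the 74 namesakes passed in TotalScript and SMART-seq2. Of all 4800 D. virilis genes tested, TotalScript then called 1071 higher and 1402 lower, and SMART-seq2 231 and 421. Of all 4467 D. melanogaster genes tested, TotalScript called 1403 higher and 1760 lower, and SMART-seq2 1456 and 942. Among all genes called in SMART-seq2, 43% were higher in D. virilis (25.6% with TMM factors, 32% with DESeq2), and 61% in D. melanogaster (49.3% and 50.4%). None of the named values that were called changed sign, and 58 in the protocol comparisons and 8 of the ratios lost the call. Totals without mitochondrial and ribosomal RNA names could not differ, since no gene bore such a name. The labels give no replicate numbers, so the mixture was the only block tried. With 1 library a mixture and 1 kind of RNA pool, differences between collections of embryos cannot be told from those between species.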
